A study of Mus musculus with 2 samples.

Results

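A set of genes of secretory and absorptive epithelia was followed in mouse liver after gamma irradiation: Dmbt1, Muc1, Muc3, Cd24a, Adgrg7, B4galnt2, Lgals4, Anxa13, Reg1 and Ctrb1. They are 10 of 22180 genes measured by a probe set with a symbol of its own, and they were selected on the difference between the irradiated and the control array of this study. Their differences are therefore given as a description, and no test was made of them. The control array held liver RNA of an untreated male C57BL/6 mouse at 9 weeks of age. The irradiated array held liver RNA of a male of the same strain and age, taken 5 weeks after a whole-body gamma dose of 6 Gy given at 4 weeks of age. The dose was delivered at 0.81 Gy per minute to anesthetized mice. Each group had 1 array, and the labels do not say whether an RNA was pooled or whether the control was anesthetized, so no spread between animals is known.

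Mucosal epithelia line the gut, the bile ducts and the ducts of glands. Their cells carry transmembrane mucins and sugar chains on the surface and secrete lectins and scavenger proteins that bind microbes. In the liver and biliary tract such cells line the bile ducts and the gallbladder, whereas hepatocytes express little of this programme. The name mucosal covers the set loosely. Ctrb1 encodes a chymotrypsinogen, a digestive protease precursor of pancreatic acinar cells, and Reg1 encodes a secreted C-type lectin-like protein of pancreas and gut. The tissue label was borne out by 11 of 11 measured hepatocyte genes being expressed, with albumin (Alb) at 13.68 and 13.70 on the log2 scale on the control and irradiated arrays.

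Promoter sequence is shown for the 4 genes whose RefSeq window begins within 2 bases of the outermost start of the gene, because these genes read higher together and the starts of the others lie inside a longer gene model or were not listed. Each stretch runs from 130 to 11 bases before the start, 5′ to 3′ on the strand of the gene, in mouse assembly GRCm38.p6. Capitals mark the TATA box letters TATAAA, the GC box letters GGGCGG and the letters TTTAT, a core of sites bound by the intestinal factors of the CDX family, each on either strand. TTTAT read on the other strand is contained in TATAAA. The stretches are chr3:89228926-89229045 (+) for Muc1, chr5:137166057-137166176 (-) for Muc3, chr6:78425853-78425972 (+) for Reg1 and chr8:111691021-111691140 (-) for Ctrb1.
Muc1: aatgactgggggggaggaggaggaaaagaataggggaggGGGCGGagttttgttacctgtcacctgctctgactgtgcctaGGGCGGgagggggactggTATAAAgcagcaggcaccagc
Muc3: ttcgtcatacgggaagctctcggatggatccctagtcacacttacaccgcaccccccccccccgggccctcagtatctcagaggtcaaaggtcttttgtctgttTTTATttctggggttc
Reg1: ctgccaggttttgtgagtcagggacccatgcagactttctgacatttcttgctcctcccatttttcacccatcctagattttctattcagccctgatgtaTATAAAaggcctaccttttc
Ctrb1: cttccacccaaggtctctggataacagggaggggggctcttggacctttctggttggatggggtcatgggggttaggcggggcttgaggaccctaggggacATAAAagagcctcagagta

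The 4 stretches had no common base composition, with 59.2% G and C in Muc1, 54.2% in Muc3, 44.2% in Reg1 and 57.5% in Ctrb1. In the 250 bases before the start, RefSeq windows were at hand for 7 of the 10 genes, and Dmbt1, Cd24a and Anxa13 had none. TATAAA was present in 2 of the 7 (Muc1 and Reg1) against 12.4% of all 32851 windows. GGGCGG was present in 3 of the 7 (Muc1, B4galnt2 and Adgrg7) against 32.7% of all. TTTAT was present in 6 of the 7, all but Lgals4, against 37.3% of all, and in 5 of the 7 once matches inside TATAAA were set aside, against 30.9%. The pancreatic type of E-box CACCTG was found in Muc1 and Lgals4 (17.2% of all windows) and not in the window of Ctrb1, while GTTAAT, part of the site of the HNF1 factors, was found only in Ctrb1 (6.43% of all). TTCNNNGAA, the letters of STAT sites, was found in Adgrg7 alone (7.02% of all). A match describes the letters and is no evidence of binding.

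All 10 genes read higher on the irradiated array. Values are log2 RMA values, and a difference is irradiated minus control. The floor, 6.06, is the median of all deposited values and stands in for a detection limit, and a fold against the floor raises every lower value to 6.06 first. A gene with at least 1 value at the floor or above was counted as expressed. In the control, 5 of the 10 lay below the floor and 5 above it, and on the irradiated array all 10 lay above it. Of all 22180 genes, 8923 lay below the floor in the control. The set was chosen on the contrast of the arrays, so nothing is read from these counts. The median difference of the 10 was 2.63 as measured, a fold of 6.21, and 2.38 against the floor, a fold of 5.21. The median of all expressed genes was -0.00 on the same scale, and the central 95% of them lay between -0.37 and 0.42. In tissue RNA, more cells of a type and more RNA per cell cannot be told apart.

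**Figure D1:**
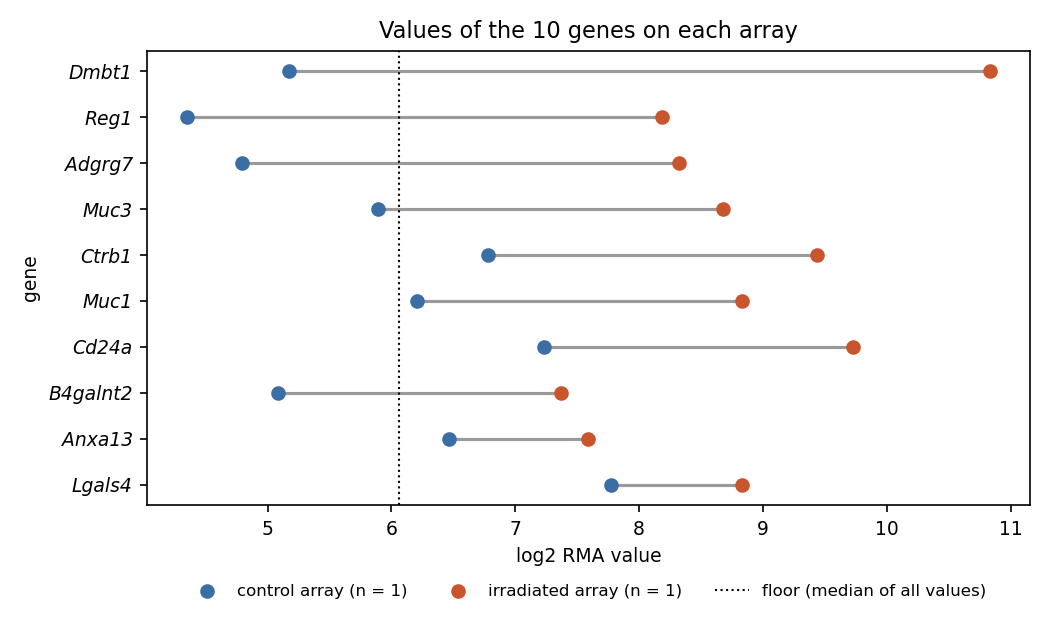
Log2 RMA value (horizontal axis) of each of the 10 genes on the control array (blue) and the irradiated array (orange), 1 array per group, ordered by difference; the dotted line is the floor of 6.06. Dmbt1, Reg1, Adgrg7, Muc3 and B4galnt2 start left of the floor, and every irradiated value lies right of it.

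All 10 reached 2-fold, both as measured and against the floor. The share of the 13689 expressed genes that did so was 0.321% as measured and 0.248% against the floor. Because the set was chosen on this contrast, nothing is read from that excess. At least 4-fold differences were seen in 8 of the 10 as measured and in 7 against the floor. Of the 10 expressed genes at least 4-fold higher on the array as a whole, 8 belonged to the set, the others being Cnn1, a smooth muscle gene, and Egr1, an immediate early transcription factor gene.

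**Figure D2:**
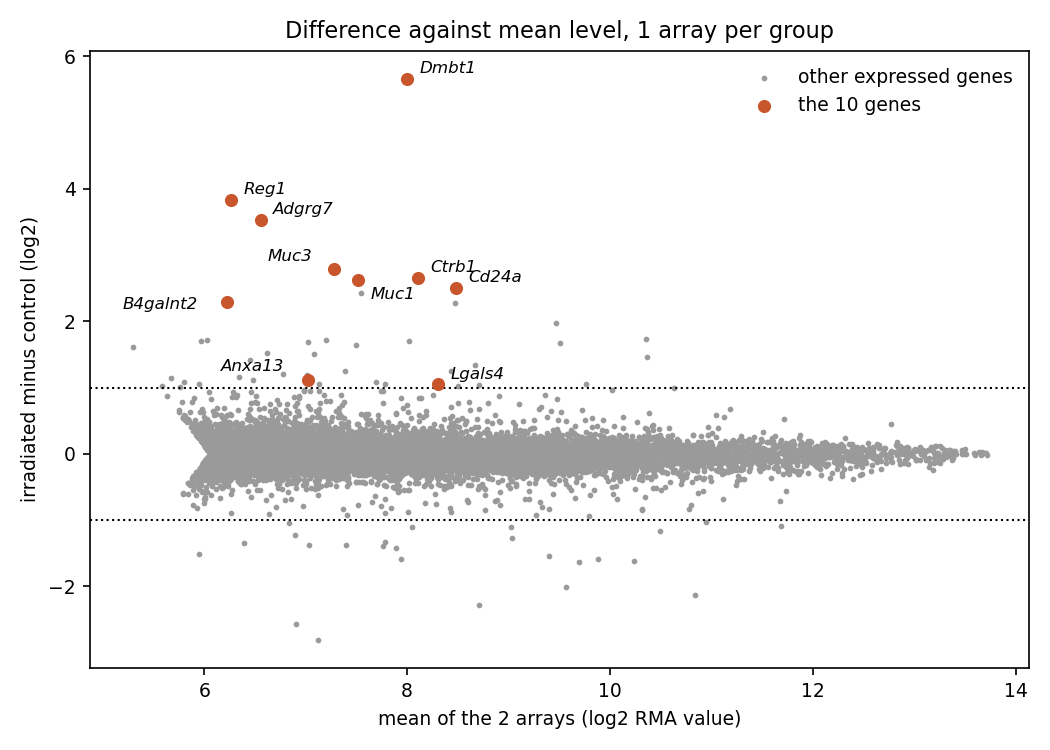
Irradiated minus control (log2, vertical axis) against the mean of the 2 arrays (horizontal axis) for the 13689 expressed genes, with the 10 genes in orange and dotted lines at 2-fold. Dmbt1 stands alone at 5.66, and Anxa13 and Lgals4 lie just above the upper line at 1.12 and 1.06.

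The secreted and surface defence proteins come first. Dmbt1 encodes a large scavenger receptor cysteine-rich glycoprotein that is secreted by mucosal epithelia and binds bacteria and viruses. Its probe set (17483925, Entrez 12945) read 5.17 in the control and 10.83 after irradiation. As measured the difference of 5.66 was 50.5-fold, and from the floor it was 27.3-fold, the largest of all expressed genes on either scale. Reg1 (probe set 17459769, Entrez 19692) read 4.35 in the control and 8.18 after irradiation. Its difference of 3.83 was 14.2-fold as measured but 4.36-fold against the floor, since its control value lay deepest below the floor among the 10. Its place in the order of differences accordingly went from 2 to 9.

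The mucins are heavily glycosylated proteins that form the surface coat of epithelial cells, and both mucins of the set are membrane-bound. Muc1 (probe set 17399374, Entrez 17829) read 6.21 in the control, 0.15 above the floor, and 8.83 after irradiation, a difference of 2.62 (6.14-fold). Muc3 (probe set 17453839, Entrez 666339), a mucin of the intestinal brush border, read 5.89 and 8.67, a difference of 2.79 (6.89-fold, or 6.13-fold from the floor). Against the floor the pair therefore lay at nearly the same fold. B4galnt2 (probe set 17268243, Entrez 14422) encodes the N-acetylgalactosaminyltransferase that makes the Sda blood group sugar on intestinal glycans. It read 5.08 and 7.37, a difference of 2.28 (4.87-fold, or 2.48-fold from the floor).

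The receptor, adhesion and lectin genes spanned the range of the set. Adgrg7 (probe set 17331059, Entrez 239853), an adhesion G protein-coupled receptor gene of gut epithelium, read 4.79 in the control and 8.32 after irradiation. Its difference of 3.53 was 11.5-fold, or 4.80-fold from the floor. Cd24a encodes a small glycosylphosphatidylinositol-anchored sialoglycoprotein that is used to mark bile duct and progenitor cells in liver. Its probe set 17233022 (Entrez 12484) read 7.23 and 9.73, a difference of 2.50 (5.65-fold) with both values above the floor. Cd24a was the only gene of the set with a further probe set, 17240606, which read 4.92 and 6.03. That difference of 1.10 (2.15-fold) had the same direction, but both values lay below the floor, so that it was 0 against the floor. Cd24a has processed copies elsewhere in the genome, and which of them either probe set can read is not known here.

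Lgals4 and Anxa13 showed the smallest differences of the set. Lgals4 (probe set 17475989, Entrez 16855) encodes galectin-4, a sugar-binding protein of the alimentary tract. It read 7.77 in the control, the highest margin over the floor among the 10 at 1.71, and 8.83 after irradiation, a difference of 1.06 (2.08-fold). Anxa13 (probe set 17317284, Entrez 69787), an annexin of epithelial apical membranes, read 6.47 and 7.58, a difference of 1.12 (2.17-fold). Both were above the floor in the control already, Anxa13 by only 0.41, and both exceeded 2-fold only narrowly.

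Ctrb1 (probe set 17513149, Entrez 66473) read 6.78 in the control and 9.43 after irradiation, a difference of 2.65 (6.28-fold), with both values above the floor. It ranked second against the floor, after Dmbt1. The other genes on the list of pancreatic acinar genes did not, as a group, read higher with it. Reg1, a gene of pancreas and gut that was higher by 3.83, was not on that list. Of its 36 symbols 29 were measured, and the defining genes Pnlip and Amy2a5 were not among them. Of 28 others measured, 19 were below the floor on both arrays, and among the 9 expressed ones the median difference was -0.09 and the range -0.35 to 0.13. The chymotrypsin genes Ctrl and Ctrc differed by -0.35 and -0.09, and the elastase gene Cela1 by -0.02. The defining trypsinogen gene Prss2 read 4.18 and 4.03 and the carboxypeptidase gene Cpa1 6.00 and 6.02, all below the floor. The summed linear signal of the 28 was 1456 in the control and 1384 after irradiation. The endocrine genes Ppy and Sst, expressed on both arrays, differed by 0.04 and 0.09.

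By construction, the gap between the measured fold and the fold against the floor was widest for the genes with the lowest control values. Of 8923 genes below the floor in the control, 4 reached a log2 value of 8 on the irradiated array, and these were Dmbt1, Reg1, Adgrg7 and Muc3. The set was chosen on this contrast, so nothing is read from its part in such counts. In the opposite direction, 2 genes below the floor on the irradiated array had read 8 or more in the control. At a log2 value of 7 the count was 8 genes, adding B4galnt2 and 3 genes outside the set: Mboat1 at 7.38, Car4 at 7.16 and Rab25 at 7.04.

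Relatives of the 10 genes mostly did not share their differences. Across 19 lists of related genes, the counts below leave out the 10 genes themselves, and a gene is counted as different at 1.5-fold. A gene that counts as expressed only through the array where it is high had to differ, so medians over expressed genes are not support. Over all expressed genes, 1.14% reached that size upwards and 0.65% downwards. Of the 6 other Reg genes, neighbours of Reg1 among them, none reached the floor on either array. Of 17 other expressed adhesion receptor genes, 0 were 1.5-fold different, with a median of 0.04 and a highest difference of 0.36. Among 15 other scavenger receptor cysteine-rich genes, all of them expressed, the median was 0.10 and 1 was 1.5-fold higher, the ferritin receptor gene Scara5 (6.50 and 7.46, 0.96). The macrophage gene Cd5l of that list differed by 0.18.

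The mucin list held 10 other measured genes, of which 7 were below the floor on both arrays, among them the gel-forming mucin genes Muc5ac and Muc5b. Of the 3 expressed ones, Muc3a read 6.36 and 7.11, a difference of 0.76 (1.69-fold), Muc4 differed by 0.33 and the goblet cell mucin Muc2 by -0.06. Muc3a is a close relative of Muc3, and probes for one may bind transcripts of the other. The trefoil factor genes Tff3 and Tff1, whose peptides are secreted with mucus, differed by 0.29 and 0.19. Among 32 other expressed glycosyltransferase genes the median was -0.03, and the sialyltransferase gene St3gal6 (6.54 and 7.26, 0.71) was the only one at 1.5-fold. The nearest relatives of B4galnt2 by name, B4galnt1 and B4galnt3, differed by -0.09 and -0.16.

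Galectins and annexins each held 1 further gene at 1.5-fold. Lgals2, a galectin of the gastrointestinal tract, read 5.10 and 6.24, a difference of 1.14 that shrank to 0.18 against the floor. The 7 expressed galectin genes other than Lgals4 had a median of -0.03, with Lgals9 at -0.30 and Lgals8 at -0.03. Anxa2, an annexin of many epithelial and mesenchymal cells, read 7.42 in the control and was higher by 0.59. The 8 expressed annexin genes other than Anxa13 had a median of 0.18, with the abundant Anxa5 at 0.20 and Anxa6 at -0.10.

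**Figure D3:**
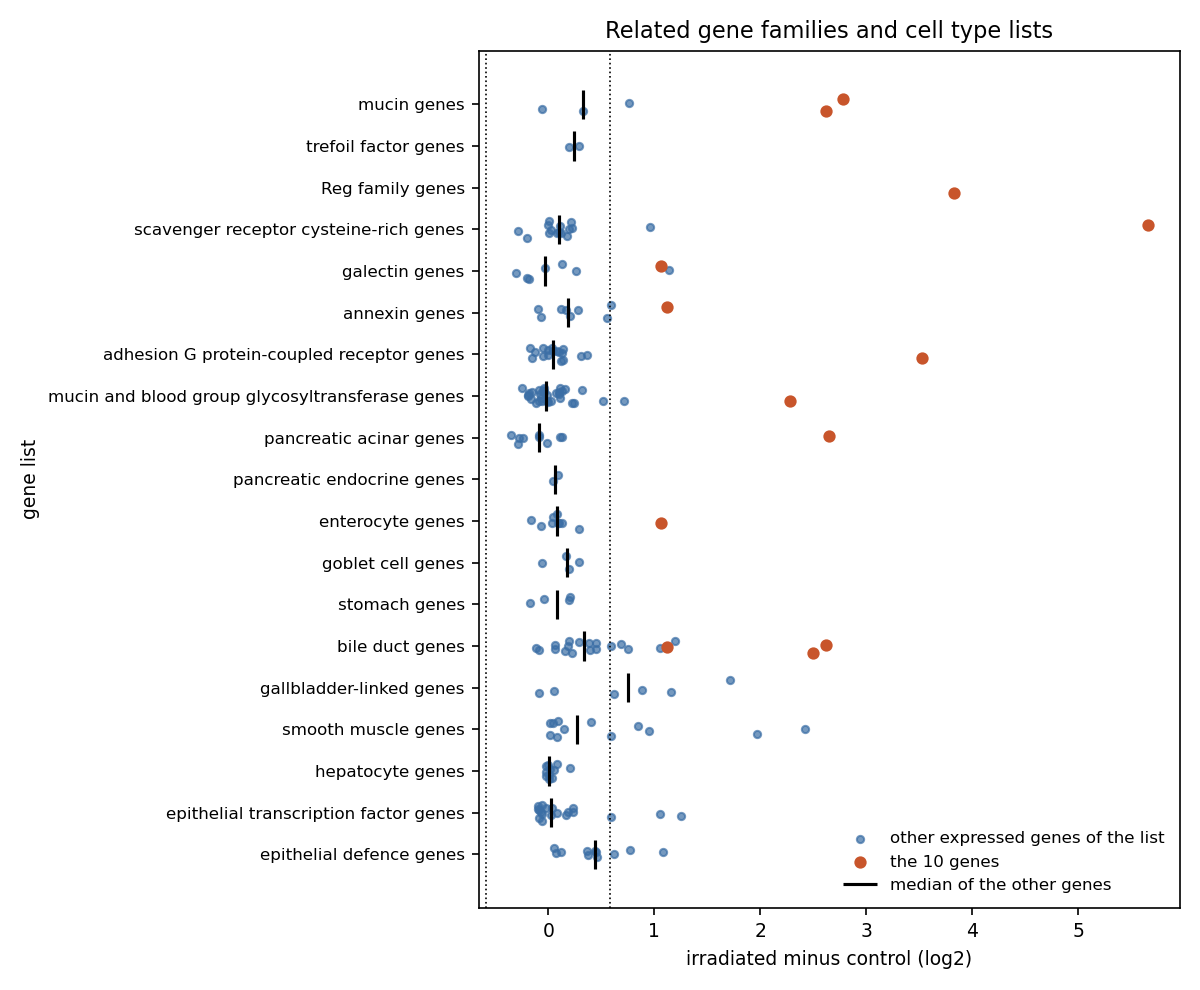
Irradiated minus control (log2, horizontal axis) of the expressed genes in 19 related lists (vertical axis), with the 10 genes in orange, other genes in blue, the median of the other genes as a black bar and dotted lines at 1.5-fold in either direction. The other bile duct genes have a median of 0.34 and the gallbladder-linked genes 0.75, against 0.29 and 0.33 when genes below the floor are kept, while the acinar genes sit at -0.09.

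Among the cell type lists, bile duct genes read higher alongside the set. Over 23 others measured the median was 0.29, and 21 were above 0. The share of all measured genes above 0 was not counted. No excess is therefore read from such counts, here or in the smooth muscle and defence lists below. Over the 18 expressed ones it was 0.34, and 5 were 1.5-fold higher, or 3 against the floor. Elf3 and Ehf, which make the difference, counted as expressed only through the irradiated array. The duct keratin gene Krt19 read 6.18 and 7.37 (1.20), the epithelial adhesion gene Epcam 6.44 and 7.19 (0.75) and the apical membrane gene Prom1 6.24 and 6.93 (0.69). Krt7 and Sox9, a second duct keratin and the duct transcription factor, differed by 0.29 and 0.19. Onecut1 and Krt8, the brightest of the list, differed by -0.09 and 0.20, and Aqp1, Slc4a2 and Dcdc2a by 0.06, 0.07 and -0.12. The 5 below the floor on both arrays included Cftr and Sctr. The summed linear signal of the 23, in which the brightest probe sets weigh most, was 12135 in the control and 13416 after irradiation.

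A short list of genes linked to gallbladder epithelium and large ducts had a median of 0.33 over its 10 measured genes. Over the 6 expressed ones it was 0.75, with 4 of them 1.5-fold higher, but Slc26a3 and Slc9a3 counted as expressed only through the irradiated array. The chloride-bicarbonate exchanger gene Slc26a3 read 5.17 and 6.89, a difference of 1.71 that was 1.78-fold against the floor. The sodium-proton exchanger gene Slc9a3 read 5.77 and 6.93 (1.16, and 1.83-fold against the floor). The carbonic anhydrase gene Car2 differed by 0.88 and the secreted protease inhibitor-like gene Wfdc2 by 0.62. The transcription factor gene Sox17 differed by -0.09, and Cckar, Tff2, Muc5b and Krt23 were below the floor on both arrays. The summed linear signal of all 10 measured genes was 4955 and 5532.

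Among expressed genes, the lists for intestinal and gastric epithelium held none at 1.5-fold besides Lgals4. These lists do not hold every gene of gut or stomach. Muc3, Adgrg7, Lgals2 (1.14), Ctse (1.68) and S100g (1.01) stand on none of them, and Slc26a3 and Slc9a3 only on the gallbladder-linked list. Against the floor Lgals2 and S100g lay at 0.18 and 0.21. Of 9 other expressed enterocyte genes 0 were 1.5-fold different, with a median of 0.08, and 15 more were below the floor on both arrays. The intestinal determinant Cdx2 read 6.02 and 6.11, the microvillus gene Vil1 5.91 and 6.19, and Fabp2, an intestinal fatty acid-binding protein gene that is also measured in this liver RNA, 10.28 and 10.12. Summed signals were 9277 and 9598 for the 24 enterocyte genes other than Lgals4 and 724 and 790 for the 11 goblet cell genes. The goblet list had 4 expressed genes with a median of 0.18, against 0.046 over all 11, and Retnlb, below the floor on both arrays, read 5.06 and 4.38. The stomach list had 4 expressed genes with a median of 0.08, against -0.17 over all 13.

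Smooth muscle genes, which are expressed in the wall of vessels, large ducts and gallbladder among other places, were higher on the same array to unequal degrees. All 13 measured ones differed upwards, by a median of 0.40, or 0.27 over the 12 expressed ones, and 5 of them by 1.5-fold. Cnn1 read 6.34 and 8.76 (2.42), Acta2 8.48 and 10.45 (1.97), Des 7.29 and 8.24 (0.95) and Actg2 6.51 and 7.36 (0.84). Others were nearly equal, with Mylk at 9.29 and 9.33 (0.04), Synm at 0.09, Hspb6 at 0.08, and Smtn and Lmod1 both at 0.01. The summed signal of the 13 measured was 2660 in the control and 4489 after irradiation, 1.69 times higher. In that sum the brightest probe sets weigh most, and Acta2 was the brightest of the list after irradiation. Hepatocyte genes had a median of 0.01 over 11, with 0 at 1.5-fold and a summed signal 1.01 times that of the control. Whether the bile duct, gallbladder and smooth muscle signal has a part in the values of the 10 genes was not tested, and with 1 array per group a difference between 2 pieces of liver and an effect of irradiation cannot be told apart.

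Regulators and defence genes of epithelia were also measured. Of 19 expressed epithelial transcription factor genes 3 were 1.5-fold higher: Klf5, a proliferation-linked factor of epithelial linings, read 6.76 and 8.01 (1.26), Elf3 5.42 and 6.47 (1.06) and Ehf 5.81 and 6.39 (0.59). Elf3 and Ehf, both ETS family factors of epithelia, started below the floor and lay at 1.33-fold and 1.26-fold against it. The list median was 0.02, and the liver factors Hnf4a and Onecut1 differed by -0.02 and -0.09. The 20 measured epithelial defence genes had a median of 0.15, with 15 above 0. The 11 expressed ones all differed upwards, by a median of 0.44, and 3 of them by 1.5-fold, and of the 11 Duox2 counted as expressed only through the irradiated array. These were the siderophore-binding Lcn2 (7.15 and 8.23, 1.08), the cornified envelope gene Sprr1a (0.77) and Wfdc2. Pigr, the receptor that carries secretory antibodies across epithelia, was nearly equal at 12.03 and 12.09.

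Chromosomal neighbours of the 10 genes stayed within 1.5-fold where they were expressed, as did nearly all expressed genes. The protein-coding gene on either side of each of the 10, by RefSeq order in GRCm38.p6, gave 20 neighbours, of which 18 were measured and 14 expressed. The 14 ranged from -0.31 to 0.14 with a median of -0.08. Over all expressed genes only 1.14% were 1.5-fold higher and 0.65% lower, so nothing is read from the neighbours staying within that size. Lgals7, next to Lgals4, differed by -0.19, and Trim46 and Thbs3, on the sides of Muc1, by 0.04 and -0.10. Reg2 and Reg3g, on the sides of Reg1, lay below the floor on both arrays, as did Tmem45a next to Adgrg7, at 5.51 and 6.01.

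Pairs of values most like those of Muc1 were found by the straight-line distance between the control and irradiated log2 values, over 2 arrays only. The 5 nearest named genes outside the set were Cnn1 (distance 0.14 log2 units), the surface protein gene Ly6d (0.69), the glucuronosyltransferase gene Ugt2b37 (0.78), the cell cycle inhibitor gene Cdkn1a (0.95) and the aspartic protease gene Ctse (0.97). Ugt2b37 belongs to a family of near-identical genes, and its signal may be shared with them. Dmbt1 had no close match, the nearest being Cnn1 at 2.37 and Egr1 at 2.49, followed by Cdkn1a, Ly6d and Ugt2b37 at up to 3.01.

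The processing settings bore unequally on the 10 genes. The 3 other scalings moved none of them by more than 0.019 log2 units. RMA had already equalised the arrays, with medians of 6.05 and 6.07, so these scalings could hardly move a difference. The choice of probe set could alter Cd24a alone. When 32 was added on the linear scale, Dmbt1 was at 4.77, Reg1 at 2.62, Adgrg7 at 2.56 and B4galnt2 at 1.58, and Lgals4 and Anxa13 fell short of 2-fold, at 0.96 and 0.90. That left 8 of the 10 at 2-fold as measured and 7 against the floor. With the floor at the 75th percentile of all values, 7.64, 6 of the 10 were 2-fold higher, while Adgrg7 was at 0.68, Reg1 at 0.54, and B4galnt2 and Anxa13 lay at or below the floor on both arrays. Dmbt1 was at 3.19 there, and Ctrb1 and Muc1 at 1.79 and 1.19.

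**Figure D4:**
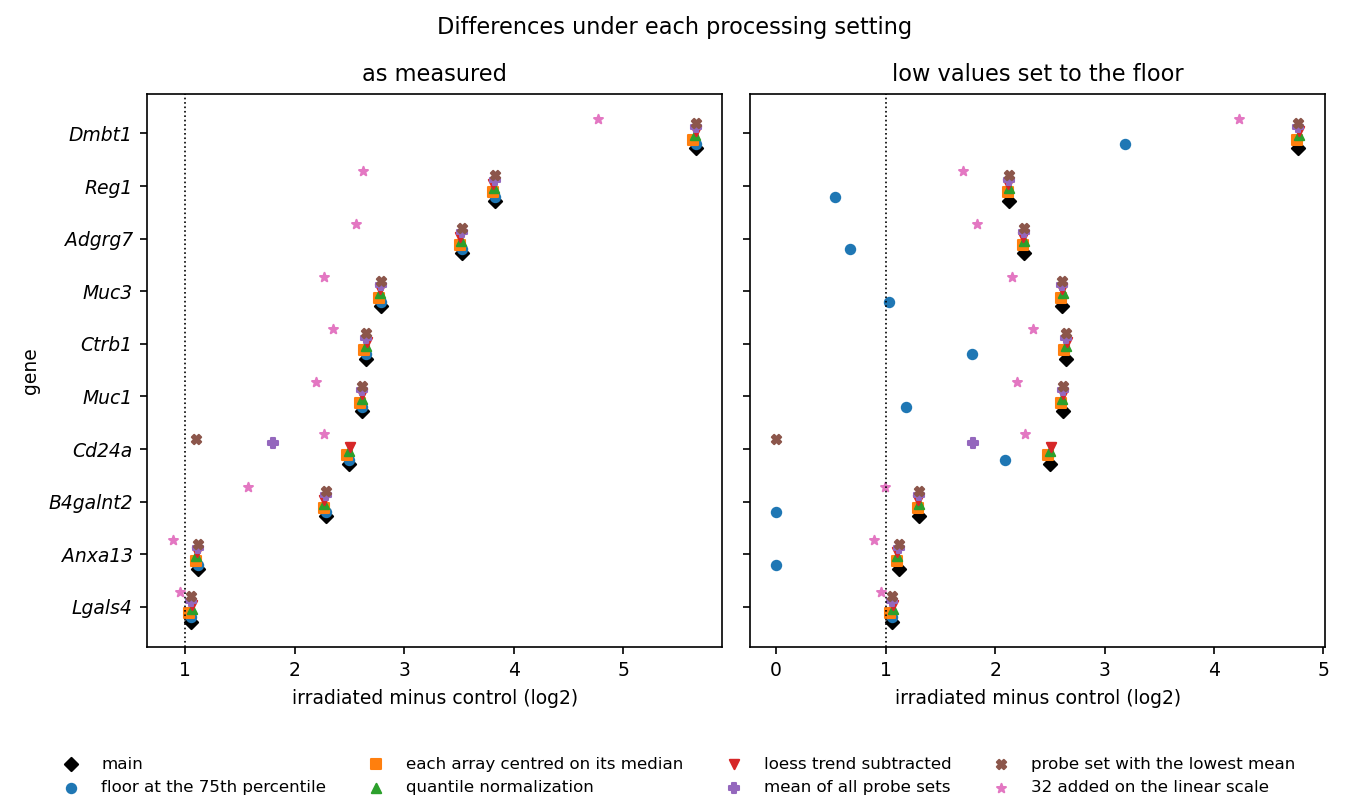
Irradiated minus control (log2, horizontal axis) of each of the 10 genes under the main setting (black diamonds) and 7 other settings, as measured (left) and counted from the floor (right); dotted lines mark 2-fold. The higher floor (blue circles) takes B4galnt2 and Anxa13 to 0 on the right, and the less bright probe set takes Cd24a to 1.10 on the left and 0 on the right.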

How the data were processed

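Liver RNA purified on columns was labelled (300 ng) for Affymetrix whole-transcript arrays, per the labels' protocols. The authors deposited 1 log2 value per probe set and array, made with RMA in Affymetrix Expression Console 1.3.1, per the submitters' processing notes. The log2 scale was read from the range of the deposited values, 1.46 to 13.9. RMA equalises the arrays, so a change in total RNA per cell cannot be seen. Scanner files were not used here.

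Of 41345 probe sets, 23521 had exactly 1 symbol in GEO's platform annotation, and per symbol the one with the highest mean was kept. The measures were the log2 difference and counts at 1.5-fold and 2-fold, with 1 array per group and no test. The number of arrays limits the precision. Genes outside the set were named by a rule: per list, up to 4 expressed genes at least 1.5-fold different with the largest differences, up to 2 with the highest level and preset defining markers, and the 5 genes nearest to Dmbt1 and to Muc1. Neighbours, relatives and genes tied to a count were named after their values were seen. The 10 genes and the lists were chosen with earlier results of these data known. Calculations used Python 3.11.15, pandas 2.3.3 and statsmodels 0.14.6 (loess, span 0.3). Only the choice of probe set and the scalings were run on simulated data, with large preset shifts, which is a lenient check. Promoter sequences are RefSeq's.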

Additional observations from a re-analysis of the deposited data

How the results depend on the processing

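No paired analysis was possible because there was 1 array in each group, and for the same reason no array could be left out. A log2 value was taken as moved when it changed by more than 1.5-fold, and a count by more than 1.5 times. A higher floor cannot alter a value as measured, and the probe set choice cannot alter the 9 genes with 1 probe set, so the signs of the 10 are no measure of stability. With the floor at the 75th percentile, 6 of the 10 genes were 2-fold higher against it, their median was 1.04, 28 expressed genes were 2-fold higher, and the medians of the mucin and acinar lists, with set members kept, became 2.70 and 2.65 because fewer genes were left. The mucin median was 1.69 with the mean of all probe sets or the less bright probe set. With 32 added on the linear scale, 27 genes were 2-fold higher, 8 of the 10 among them, or 7 against the floor. Dmbt1 moved to 4.77, Adgrg7 to 2.56, B4galnt2 to 1.58 and Reg1, the only expressed Reg gene, to 2.62. With no filter, the Reg list had a median of 0.093. At 1.5-fold 156 genes were counted and at 3-fold 20. Leaving the set members out of the lists was added after seeing the data. Values near the floor are the least certain, and depth is not defined for arrays.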

Other observations

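The genes below, also expressed in epithelia, belonged to none of the lists and reached 2-fold. They were singled out after their values were seen, and no explanation was tested. Ctse, an aspartic protease gene of gastric and other mucosal epithelia, read 6.18 in the control and 7.86 after irradiation, a difference of 1.68 (3.21-fold). Ly6d, a gene for a glycosylphosphatidylinositol-anchored surface protein, read 6.68 and 8.32 (1.64, 3.12-fold). Vsig2, an immunoglobulin-domain membrane protein gene, read 6.42 and 7.61 (1.19, 2.28-fold). These 3 were above the floor on both arrays.

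The next 3 were below the floor in the control. Car4, a membrane-anchored carbonic anhydrase gene, read 5.75 and 7.16 and was 2.15-fold higher against the floor. Mboat1, a lysophospholipid acyltransferase gene, read 5.86 and 7.38 and was 1.32 log2 units higher against it. Rab25, a small GTPase gene of epithelial recycling endosomes, read 5.92 and 7.04 and was 1.97-fold higher against it. S100g, the intestinal calcium-binding protein calbindin-D9k, read 5.26 and 6.27 and hardly passed the floor, at 1.16-fold.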
